A study of Mus musculus with 6 samples.

Results

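The Trim genes encode tripartite-motif proteins, most of which are ubiquitin ligases. They were taken as the genes whose symbol is Trim followed by a number and at most 1 further letter, among genes read by a probe set that names a single gene. This gave 58 of the 19938 genes of the comparison. Each of the 58 was read by 1 such probe set, so the rule of taking a gene's probe set with the highest mean made no choice among them. The RNA was from the mouse embryonic stem (ES) cell line HM1, grown in medium with 15% serum and leukemia inhibitory factor (LIF) at 1000 U/ml, which holds ES cells undifferentiated. Of the 6 Affymetrix arrays, 3 were of cells carrying the empty vector pCAGIP.puro (control) and 3 of cells carrying mouse Prmt6 in the same vector (Prmt6 overexpression). Both groups were transfected with Lipofectamine 2000, and 3 days of puromycin (1 ug/ml) followed. Prmt6 adds methyl groups to arginines, on histones among other proteins. The titles only number the replicates, and whether each was its own culture is not stated. The p-values therefore describe spread among these 6 samples that may be technical.

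A tripartite-motif protein carries a RING finger, which recruits a ubiquitin-loaded E2 enzyme, then B-box zinc fingers and a coiled coil through which the proteins pair. The domain at the other end differs between classes and sets what each protein binds: an SPRY domain in the largest class, NHL repeats that bind RNA or protein, a PHD finger with a bromodomain that reads histones, or a COS box that sits on microtubules. A few members have lost the RING. In ES cells the family is best known for Trim28, the corepressor that KRAB zinc finger proteins recruit to silence retroelements, and for Trim71, the mouse counterpart of the worm gene lin-41 and a target of the let-7 microRNAs.

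Values are log2 signals from robust multi-array average (RMA) processing, and a difference is overexpression minus control on that scale. The medians of the control arrays were 5.60 to 5.62 and those of the overexpression arrays 5.54 to 5.59, and correlations between arrays over all probe sets ran from 0.980 to 0.992. The Prmt6 signal was 6.84, 6.58 and 7.12 with empty vector and 7.32, 7.40 and 7.33 with the Prmt6 vector, a rise of 0.50 ± 0.13 (limma, adjusted p = 0.0406). Whether this probe set reads the cloned sequence is not given in the labels, so the value may not measure the transgene. Of 22 pluripotency markers all were measured, with 2 higher and 4 lower and differences from -0.77 to 0.37. Their mean signal was 9.42 to 9.49 on control arrays, beside 9.43 to 9.45 with overexpression, so the level mean hides changes in both directions. For comparison with this and the later lists, 7.05% of all genes were higher and 3.25% lower. Markers of fibroblasts had 11 of 19 measured genes higher, 0 lower and 8 neither, with a median difference of 0.36. Their mean signal was 5.85 to 5.90 on control arrays, beside 6.69 to 6.78 with overexpression. The largest differences, which weigh on that mean, were those of Acta2 (4.53), Tagln (3.29) and Vim (1.62). The part of the fibroblast markers in the results below was not tested. In bulk RNA, fewer cells of a type and less RNA per cell cannot be told apart. Signals of different probe sets depend on their probes, so levels are compared here only within a gene.

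The question put to the arrays was whether expression changes in ES cells once the vector carries Prmt6. Most differences were small, as they were over all genes. Trim36, with a fall of 2.32-fold, was the 1 member past 1.5-fold (1.72%, against 3.38% of all genes). On the log2 scale 40 of the 58 differed by less than 0.2 (69.0%, against 72.8% of all genes). With limma and Benjamini-Hochberg adjustment over all 19938 genes (threshold 0.05), 3 members rose (Trim35, Trim2 and Trim16), 2 fell (Trim36 and Trim46) and 53 did not pass. The share called was 8.62%, against 10.3% of all genes. In each direction the share was also near that of all genes, at 5.17% against 7.05% higher and 3.45% against 3.25% lower. The groups' arrays did not overlap in 18 members (31.0%), against 29.7% of all genes. Of these 18, 9 lay above control (15.5%, against 17.0% of all genes) and 9 below (15.5%, against 12.7%). The members' median difference was -0.032, beside 0 for all genes. Median SDs between replicates were 0.0819 in control and 0.115 in overexpression for the members and also 0.0819 and 0.115 for all genes (n = 3 arrays each).

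**Figure D1:**
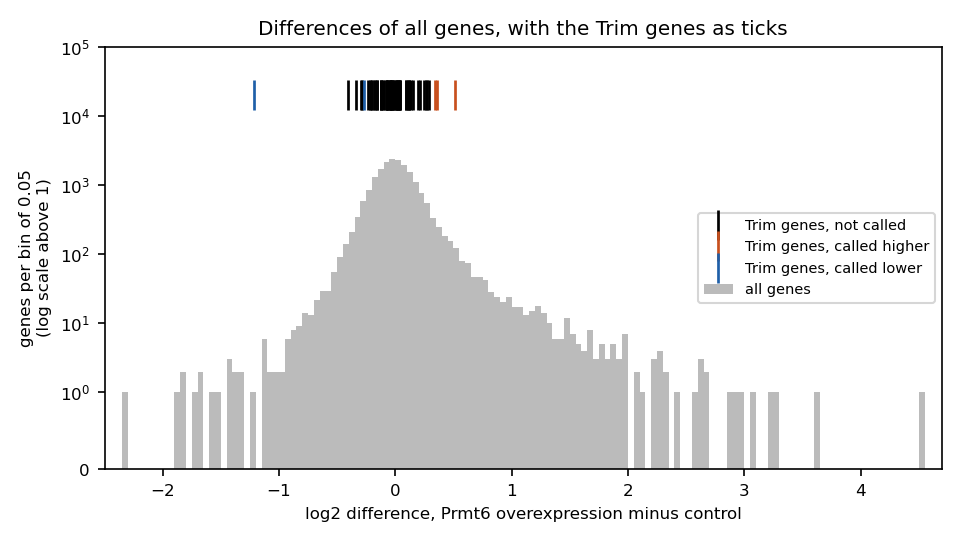
Log2 difference (Prmt6 overexpression minus control, x axis) of all 19938 genes as grey bars, counted per bin on an axis that is logarithmic above 1 gene, with the 58 Trim genes as ticks coloured by call. Trim36 at -1.22 lies apart, and the other Trim genes lie between -0.41 and 0.51.

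Trim36 binds microtubules through its COS box and was first described in mouse sperm as haprin. Its log2 signal was 6.86, 6.88 and 6.84 in control and 5.60, 5.65 and 5.68 in overexpression. Every overexpression array lay more than 1 unit below every control array, and replicates within a group were close together. The fall was -1.22 ± 0.067 (95% interval -1.37 to -1.06, adjusted p = 1.27e-05), the 17th lowest difference among all genes. It passed in every one of the 6 fits that left out 1 array, with differences from -1.24 to -1.20 and a highest adjusted p of 0.000249, and it was the single member that also passed at 0.01. The protein-coding genes on either side of Trim36 in the mouse annotation did not pass. Kcnn2, a potassium channel, was at -0.29 ± 0.084 (limma, adjusted p = 0.0654), with every overexpression array below every control array. Pggt1b, a prenyltransferase subunit, was at 0.10 ± 0.10. Of the next genes out, Ccdc112 was at -0.26 ± 0.082, also without overlap (adjusted p = 0.0874). Ythdc2 was at -0.083 ± 0.11, and neither passed.

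Trim46, which bundles microtubules at the start of the axon in neurons, read 5.75, 5.74 and 5.64 in control and 5.42, 5.47 and 5.44 in overexpression. The groups did not overlap, but the gap between their nearest arrays was small. The fall of -0.27 ± 0.07 stood at an adjusted p of 0.0463. That call ended without any 1 of the 6 arrays (adjusted p from 0.0751 to 0.171), with arrays centred on their medians (0.0935), under quantile normalization (0.0727) and with a trended and robust variance prior (0.0702). The other members of this COS box class act in neurons as well. Trim9, which binds the netrin receptor DCC in mouse neurons, was at -0.047 ± 0.19, which became 0 with arrays centred on medians, and its close relative Trim67 at 0.09 ± 0.074, and neither passed. Trim9 had wide spread, with control arrays from 4.41 to 4.85 and overexpression arrays from 4.25 to 5.01. Of 11 neuron markers, 3 were higher and 0 lower in these arrays, but 6 differences were negative and the median was -0.013. The mean signal of the markers was 5.89 to 5.95 in control and 6.04 to 6.10 in overexpression. The part of these markers in the 2 falls was not tested.

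The same COS box architecture is found in Mid1 and Mid2, tripartite-motif proteins whose symbols fall outside the naming rule. Mid1, the mouse counterpart of the human Opitz syndrome gene, read 9.52, 9.63 and 9.64 in control and 9.36, 9.18 and 9.19 in overexpression and fell by 0.35 (adjusted p = 0.0278). Mid2 read 4.13, 3.80 and 3.96 in control and 4.92, 4.41 and 4.41 in overexpression and rose by 0.62 (adjusted p = 0.0349). These relatives were called in opposite directions. Pml, which builds the nuclear bodies named after it, fell by 0.26 (adjusted p = 0.0476), and Mefv, known as pyrin, was at 0.067 ± 0.15. The calls of Mid1, Mid2 and Pml ended in 5, 4 and 6 of the 6 fits without 1 array, with adjusted p up to 0.109, 0.113 and 0.164. With arrays centred on medians those of Mid1 and Pml also ended (0.0512 and 0.0919).

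**Figure D2:**
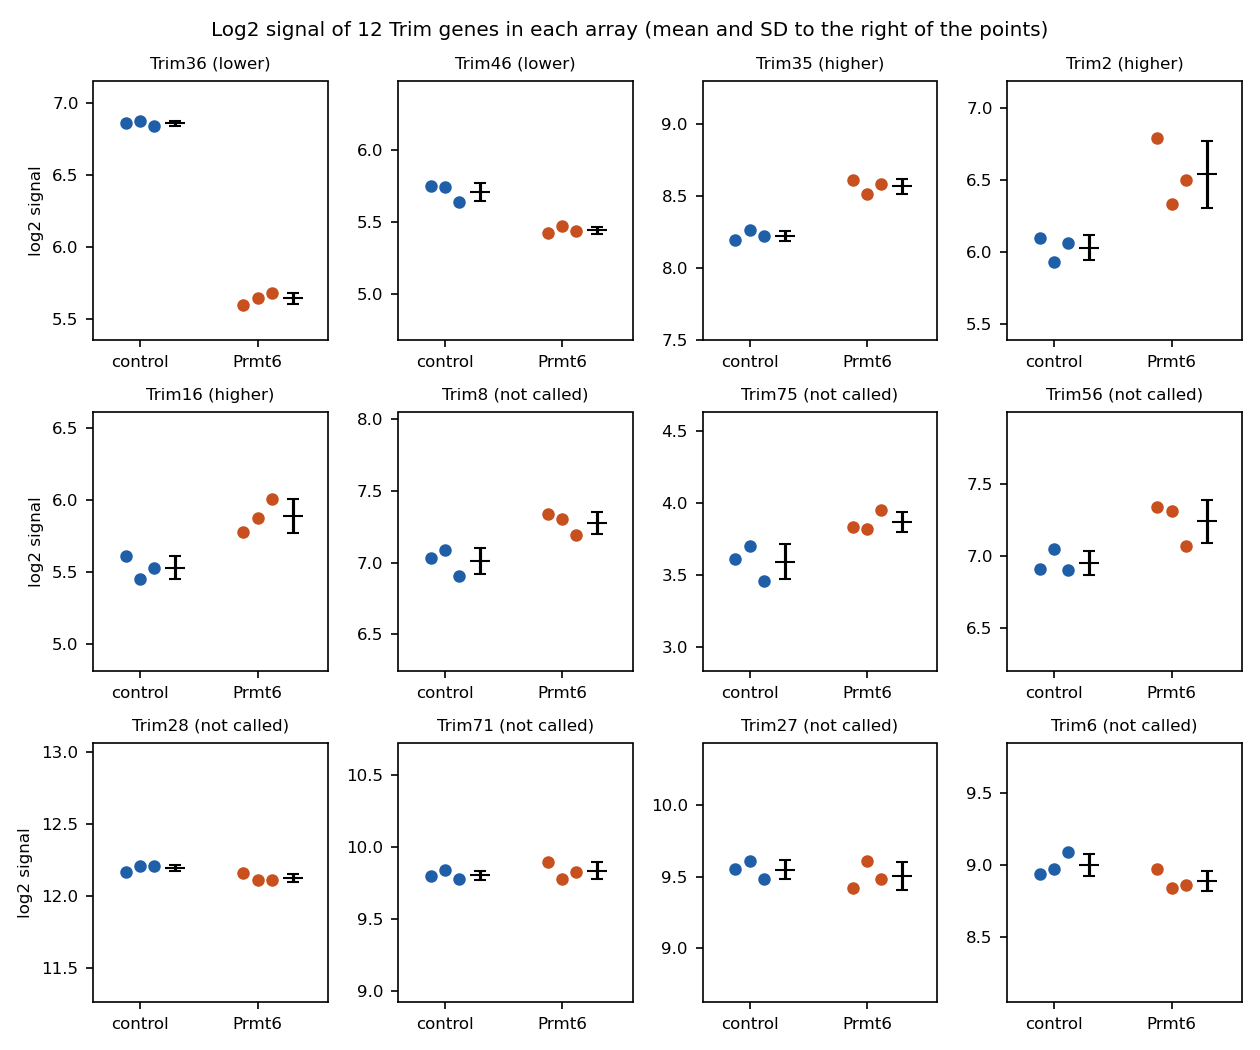
Log2 signal of 12 Trim genes in each control (blue) and Prmt6 overexpression (orange) array, with the group mean and SD (n = 3) to the right of the points, on y axes of equal span. The first 5 panels are the called genes, led by Trim36 at 6.86 against 5.64, the next 3 lie just outside the threshold, and the last 4 are members that did not pass.

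Among the proteins with NHL repeats, Trim2 rose. Trim2 ubiquitinates neurofilament light chain in neurons. It read 6.10, 5.93 and 6.06 in control and 6.79, 6.33 and 6.50 in overexpression, so the groups did not overlap and the overexpression arrays spread more widely (SD 0.23 against 0.089). The rise was 0.51 ± 0.12, or 1.42-fold (95% interval 0.24 to 0.78, adjusted p = 0.0298), the largest rise among the 58 and the 680th among all genes. Leaving out control replicate 1, 2 or 3, or overexpression replicate 3, ended the call (adjusted p from 0.0573 to 0.101). Nefl, the gene of neurofilament light chain, rose in the same arrays by 0.43 ± 0.08 (adjusted p = 0.0108), a call that ended without control replicate 1 or 2 (adjusted p up to 0.0540). Nefl belongs to the neuron list, where 6 of 11 differences were negative. Nefm and Tubb3 of that list rose more than Nefl, by 0.83 and 0.53 (limma, adjusted p = 0.00303 and 0.00241). Their calls held in all 6 fits without 1 array. The part of the neuron list in the rise of Trim2 was not tested. Trim3, a relative of Trim2 in brain, was at 0.24 ± 0.11 and Trim32, mutated in a human limb-girdle muscular dystrophy, at 0.12 ± 0.092, and neither passed.

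Trim71, the fourth NHL protein, binds messenger RNA and is a marker of undifferentiated mouse ES cells. Its signal was 9.80, 9.84 and 9.78 in control and 9.90, 9.78 and 9.83 in overexpression. The groups overlapped, the difference was 0.03 ± 0.07, and its 95% interval of -0.13 to 0.19 leaves room for a rise of at most 1.14-fold. Trim71 is controlled by the let-7 microRNAs in mouse and worm, so the let-7 genes are shown beside it. The 4 mature let-7 sequences below (RefSeq, GRCm38.p6), written 5′ to 3′ with the seed at bases 2 to 8 in capitals, share 1 seed, as do all 8 mature 5p sequences of the table.
mmu-let-7a-5p: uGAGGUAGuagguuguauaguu
mmu-let-7d-5p: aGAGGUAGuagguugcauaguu
mmu-let-7e-5p: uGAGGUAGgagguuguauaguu
mmu-let-7i-5p: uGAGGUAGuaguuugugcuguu
Outside the seed they differ at few bases. An array of this kind reads the longer transcript or hairpin and not the mature microRNA. Of 9 let-7 genes on single-gene probe sets, 0 passed (limma, 0 also at an unadjusted p under 0.05), and their differences lay between -0.44 for Mirlet7d and 0.13 for Mirlet7i. Mirlet7d was the most variable, at 6.55, 6.48 and 6.95 in control and 6.67, 6.29 and 5.70 in overexpression.

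Of 20 measured genes in the list around Trim71, LIN28 and let-7, 1 was higher, 2 were lower and 17 did not pass, with a median difference of -0.11 beside 0 for all genes. Hmga2, a chromatin protein and a classic let-7 target, rose by 0.70 ± 0.067 (adjusted p = 0.000316). Dicer1, which cuts microRNA precursors, fell by 0.33 ± 0.08 and the Argonaute gene Ago1 by 0.36 ± 0.087 (adjusted p = 0.0336 and 0.0346). Both of these calls ended in 5 of the 6 fits without 1 array (adjusted p up to 0.128 and 0.123) and with arrays centred on medians (0.0680 and 0.0663), while that of Hmga2 held in all 6. Lin28a and Lin28b, which block let-7 maturation, were at 0.10 ± 0.077 and -0.03 ± 0.075 and did not pass.

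The SPRY class is the largest, with 27 measured members that range from antiviral factors to muscle repair proteins. Trim35 was its 1 called gene, none fell past the threshold, and 26 did not pass. Its median difference was -0.033 and its range was -0.41 to 0.34. Trim35, known as Hls5 from mouse blood cells, read 8.19, 8.26 and 8.22 in control and 8.61, 8.51 and 8.58 in overexpression. The groups were well apart for their spread, and the rise was 0.34 ± 0.069, or 1.27-fold (adjusted p = 0.0158). Leaving out any 1 control array ended the call (adjusted p from 0.0503 to 0.0782).

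Several SPRY members with known roles in ES cells or in antiviral sensing did not pass. Trim6, which ubiquitinates Myc in mouse ES cells, read 8.94, 8.97 and 9.09 in control and 8.97, 8.84 and 8.86 in overexpression, a difference of -0.11 ± 0.077. Trim27, a nuclear protein first found as part of a fusion with the Ret kinase, was at -0.043 ± 0.08, with groups that overlapped from 9.48 to 9.61 in control and 9.42 to 9.61 in overexpression and a sign that turned with arrays centred on medians (0.0033). Trim25, which ubiquitinates the RNA sensor RIG-I, was at -0.083 ± 0.075. For these 3 genes the 95% intervals run from -0.29 to 0.066, from -0.23 to 0.14 and from -0.26 to 0.088, so falls of more than 1.22-fold lie outside all of them. Trim21, the cytosolic antibody receptor, was at 0.0033 ± 0.09, with control arrays at 5.73, 5.55 and 5.53 and overexpression arrays at 5.72, 5.49 and 5.61.

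Of 25 measured genes of interferon signalling and cytosolic nucleic acid sensing, a pathway in which many SPRY proteins act, 1 was higher and 24 did not pass, with a median difference of 0.08. The called gene was Ddx58, which encodes RIG-I. It read 6.88, 6.60 and 6.71 in control and 7.48, 7.36 and 7.55 in overexpression, a rise of 0.73 ± 0.094 (adjusted p = 0.00170) that held in all 6 fits without 1 array. Of 10 measured blood and immune markers, 2 were higher and 0 lower, and their mean signal was 4.74 to 4.89 on control arrays, beside 4.79 to 4.90 with overexpression.

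Muscle proteins of the family were near the control level. The 3 muscle RING members with a COS box, Trim54, Trim55 and Trim63, of which Trim63 (MuRF1) drives protein breakdown in wasting muscle, were at 0.19 ± 0.11, 0.03 ± 0.11 and -0.15 ± 0.097 and did not pass. Trim72, the membrane repair protein MG53 of the SPRY class, was at -0.18 ± 0.072 with an adjusted p of 0.161. Of 15 striated muscle markers 2 were higher, the actins Actc1 (1.23 ± 0.10) and Acta1 (1.05 ± 0.078), and 1 was lower, the giant sarcomere gene Ttn (-0.44 ± 0.068).

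Trim16 was the called gene among the 4 members placed in the class without a RING. It is induced as keratinocytes differentiate and marks damaged lysosomes for autophagy. Its signal was 5.61, 5.45 and 5.53 in control and 5.78, 5.88 and 6.01 in overexpression, with no overlap and a gap between the groups of the same order as their spread. It rose by 0.36 ± 0.085, or 1.28-fold (adjusted p = 0.0325), and passed only without overexpression replicate 1 among the 6 fits that left out an array (adjusted p up to 0.119 in the others). The other members of that class were Trim44 at 0.21 ± 0.086, Trim14 at 0.017 ± 0.11 and Trim29 at 0.013 ± 0.088, none past the threshold.

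The 4 genes with a PHD finger and a bromodomain act in the nucleus as transcriptional coregulators. All 4 had groups that did not overlap, as 29.7% of all genes did, and 0 passed, with adjusted p from 0.252 to 0.582 (limma, and 0 at an unadjusted p under 0.05). Trim28 read 12.17, 12.21 and 12.21 in control and 12.16, 12.11 and 12.11 in overexpression, a difference of -0.07 ± 0.066 whose 95% interval of -0.22 to 0.081 allows a fall of at most 1.17-fold. Trim24, a partner of nuclear receptors and a ligase for p53, was at -0.15 ± 0.074. Trim33, which acts on Smad4 in TGF-beta signalling, was at -0.21 ± 0.10, and its overexpression replicate 3 lay lowest at 7.58 beside 7.95 and 7.85. Trim66, which binds heterochromatin protein, was at 0.12 ± 0.067, so this class lay on both sides of 0.

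Of 17 measured partners of Trim28 in silencing, 0 were higher, 1 was lower and 16 did not pass, with a median difference of -0.08. The gene that passed was Zfp809, the mouse KRAB zinc finger protein that recruits Trim28 to the primer binding site of murine leukemia virus. It read 8.17, 8.15 and 8.19 in control and 7.85, 7.88 and 7.75 in overexpression, a fall of 0.34 ± 0.07 (adjusted p = 0.0173) whose call was lost on leaving out any 1 control array (adjusted p up to 0.0759). Setdb1, the histone methyltransferase of this pathway, was at -0.25 ± 0.088 (limma, adjusted p = 0.119). Zfp819 at 0.28 ± 0.087 and Chd3 at 0.23 ± 0.080 lay on the other side of 0 and did not pass (adjusted p = 0.0865 and 0.114). Of the 17 differences, 12 were negative and 5 positive.

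**Figure D3:**
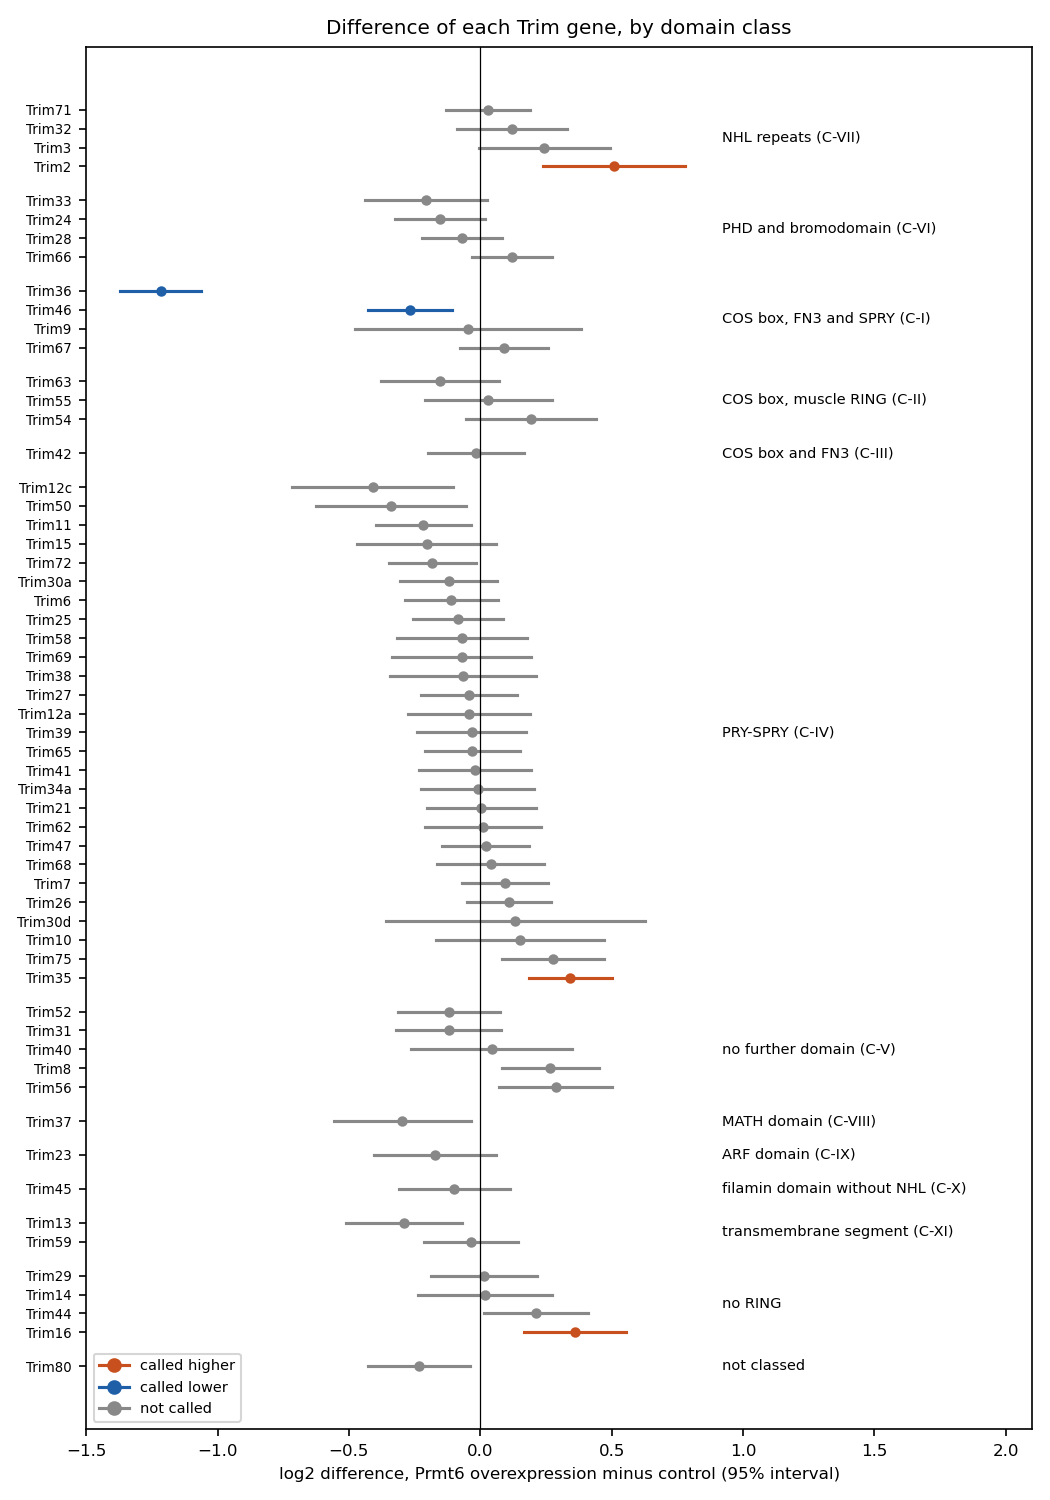
Log2 difference (Prmt6 overexpression minus control) of each of the 58 Trim genes with its 95% interval, grouped by the class of the domain that follows the tripartite motif and coloured by call. Trim36 at -1.22 stands apart within the COS box class, and most other intervals cross 0.

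Trim8, Trim75 and Trim56 lay just outside the threshold, with adjusted p of 0.0765, 0.0825 and 0.0967 against 0.0463 for Trim46 just inside. Trim8 removes the cytokine signalling inhibitor Socs1. It read 7.03, 7.09 and 6.91 in control and 7.34, 7.30 and 7.19 in overexpression, a difference of 0.27 ± 0.08. Trim56, which acts in antiviral sensing, was at 0.29 ± 0.094 and Trim75 at 0.28 ± 0.086. All 3 had every overexpression array above every control array. Trim8 passed in 5 of the other settings, among them with arrays centred on medians (adjusted p = 0.0470).

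The members with a MATH domain, an ARF domain, a filamin domain without NHL repeats or a transmembrane segment had negative differences and did not pass. Trim37, a peroxisomal and centrosomal ligase mutated in human mulibrey nanism, was at -0.30 ± 0.11, with overexpression arrays at 8.93, 8.66 and 8.47 beside control arrays between 8.93 and 9.02. Its groups touched at 8.93, and without overexpression replicate 1 it passed at -0.42 (adjusted p = 0.0283). Trim13, a ligase of the endoplasmic reticulum membrane, was at -0.29 ± 0.097, and Trim59, the other member with a transmembrane segment, at -0.037 ± 0.078, a sign that turned with arrays centred on medians (0.01). Trim23, which carries an ARF domain, was at -0.17 ± 0.10 and Trim45 at -0.10 ± 0.092. The 13 members whose groups did not overlap but which did not pass were Trim8, Trim56, Trim75, Trim44, Trim66 and Trim26 above control and Trim13, Trim80, Trim11, Trim72, Trim24, Trim33 and Trim28 below it. Across all members, 47 of the 53 that did not pass had a 95% interval lying within 0.5 of 0, so a larger change fell outside the interval for those.

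**Figure D4:**
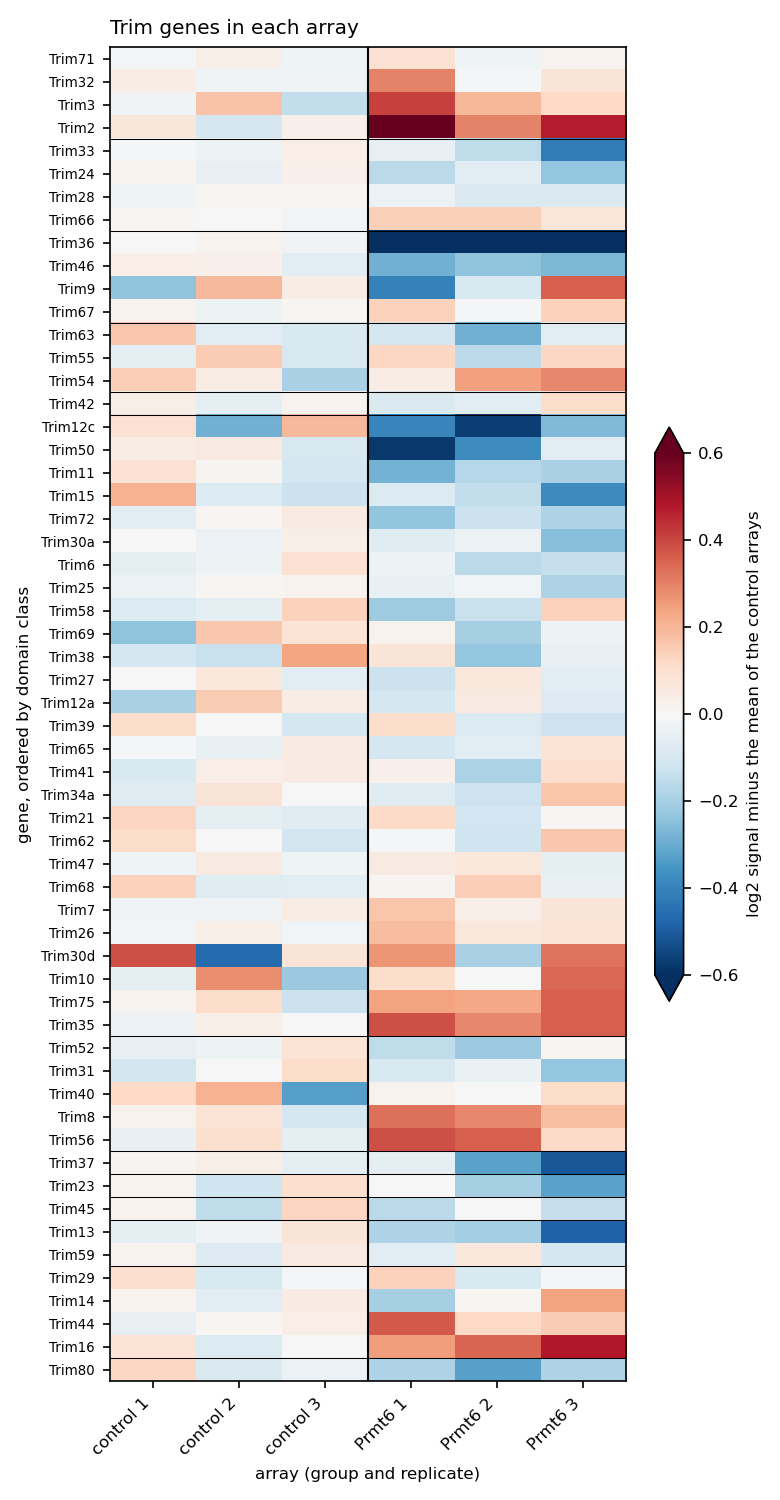
Log2 signal of the 58 Trim genes in each array minus the mean of the gene's 3 control arrays, in rows ordered by domain class. The Trim36 row is deep blue in all 3 overexpression arrays, while single arrays stand out in rows such as Trim37, Trim33 and Trim13, where overexpression replicate 3 is lowest.

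The mouse annotation lists 68 symbols of this form. Of the 10 that are not among the 58, 8 are named on 6 probe sets that also name another gene, and Trim30c and Trim34b are not analysed here. Trim43a, Trim43b and Trim43c, near-identical genes expressed in mouse preimplantation embryos, share 1 of these probe sets. It read 5.32, 5.31 and 5.24 in control and 4.64, 4.85 and 4.95 in overexpression, a difference of -0.48 ± 0.096 with no overlap between the groups. In a fit over all 35556 probe sets, which was added after the data were seen, its adjusted p was 0.0467, and it passed in 0 of 6 fits without 1 array (0.0555 to 0.166). Of the 16 genes listed as 2-cell-like, 6 were measured and all were lower in the same arrays, and their mean signal was 6.04 to 6.16 in control and 4.62 to 4.97 in overexpression; their part in the lower Trim43 signal was not tested. The other 5 shared probe sets had differences from -0.27 to 0.067 and adjusted p from 0.173 to 0.957. The shared signal cannot be assigned to a single gene, and the same holds in part for Trim12a, Trim12c, Trim30a and Trim30d, which have close copies beside them in the genome.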

How the data were processed

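RNA of 6 samples was hybridised to 1 Affymetrix array each, from 5 ug of total RNA per the labels' protocols. The deposited values are log2 signals made with RMA, per the submitters' processing notes. The RMA software, version and background correction were not given in the sources used here. RMA brings arrays close to a common distribution, so a shift of most genes in 1 direction could be hidden. The deposited arrays were not identical in distribution, with medians of 5.60 to 5.62 in control and 5.54 to 5.59 in overexpression. The table held 35556 probe sets and 0 missing values. No detection calls were used, and precision is limited by there being 3 arrays a group.

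Probe sets were named from the 2016 platform annotation. All 58 members matched the mouse annotation (GRCm38.p6) by gene identifier, which was used for names and neighbours. Groups were compared with limma 3.58.1 in R 4.3.3 (lmFit, eBayes), two-sided, over all 19938 genes without a filter, with Benjamini-Hochberg adjustment and 0.05 as the threshold. Errors after ± are SEs of differences. Deviations of same-numbered replicates from their group means correlated at -0.019, -0.016 and -0.12, so the numbers were not taken to pair the samples. The plots used matplotlib 3.10.9 (Python 3.11.15).

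Members, domain classes and lists were chosen with earlier results of these data known. Named members were those past the threshold, the 8 with the highest mean, the 3 nearest outside the threshold and 11 named in any case. Further members are named to complete their class. For each list up to 3 called genes with the largest change were to be named, and other genes of a list were named after their values were seen. In simulated data of this comparison over 19938 genes the procedure recovered 6.40% of genes changed by 0.3, 69.2% at 0.5 and 100% at 1, with 5.72% of calls false. Each simulated run changed 200 genes, where 2052 were called in the data, and gave both groups the same spread. Recovery with as many changed genes as in the data was not simulated.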

Additional observations from a re-analysis of the deposited data

How the results depend on the processing

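The fall of Trim36 passed under every alternative tried. Each of the other 4 calls ended without at least 1 of the arrays, and the counts of 3 higher and 2 lower members moved with the processing. With the replicate block, 1 member was higher (Trim2) and 2 were lower (Trim36 and Trim12c), and the calls of Trim35 (adjusted p = 0.0626), Trim16 (0.0779) and Trim46 (0.122) ended. Under the block the calls of Mid1 (0.0824), Pml (0.131), Zfp809 (0.0629), Dicer1 (0.0956), Ago1 (0.0780), Ube2d1 (0.0522), Ube2l3 (0.0653), Ptk2b (0.0790) and Thbs3 (0.0524) ended too. In fits that left out 1 array, from 0 to 3 members were higher and from 1 to 2 lower, with 0 higher without control replicate 1, 2 or 3. At a threshold of 0.01, 0 were higher and 1 was lower. With the dimmest genes (to the 30th percentile) left out, arrays centred on medians, a trended and robust variance prior or array weights, 5 members were higher in each case. Lower members numbered 4 with genes under the median left out and 1 with arrays centred on medians. Members that gained a call without 1 array were Trim56 and Trim50 (overexpression replicate 3, adjusted p = 0.0340 and 0.0221), Trim37 (overexpression replicate 1, 0.0283) and Trim12c (control replicate 2, 0.0262). Fewer genes were tested under both filters, which leave 44 and 25 of the 58 members. Elsewhere the causes were not tested. Of 73 refits of the called members, 49 kept the call and 24 lost it. Of 207 refits of named members that were not called, 191 were again not called and 16 gained a call. Both tallies include 2 refits per member that only changed how genes with several probe sets were handled. Each member has 1 such probe set, so its signals and difference stayed the same and its adjusted p could move only through other genes. All called members kept their calls in these refits, which says little about how stable the calls are. Centring arrays on medians moved the median of all genes by 0.047 and quantile normalization by 0.024, and 8 and 5 members, all within 0.047 of 0, changed sign. Related genes were refitted for their calls only, and the list counts were not.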

Other observations

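Of the listed E1 and E2 enzymes of ubiquitin transfer, 14 E2 or E2-like genes were measured and the E1 gene Uba1 was not. Of the 14, 3 were higher, 0 lower and 11 did not pass (limma, adjusted over all genes), where 7.05% of all genes were higher. Their differences were positive in 13, with a median of 0.16, beside 49.6% positive and a median of 0 for all genes. Ube2d1, an E2 that works with many RING ligases in the test tube, read 7.51, 7.63 and 7.65 in control and 7.88, 8.08 and 7.92 in overexpression, a rise of 0.36 ± 0.083 (adjusted p = 0.0277). Ube2g2, the E2 of protein quality control at the endoplasmic reticulum, rose by 0.37 ± 0.068 (adjusted p = 0.0105), and Ube2l3 rose by 0.38 ± 0.096 (adjusted p = 0.0405). In fits without 1 array the calls of Ube2d1, Ube2g2 and Ube2l3 ended in 4, 1 and 5 of 6 (adjusted p up to 0.114, 0.0548 and 0.131), and that of Ube2l3 ended under quantile normalization (0.0758).

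Many Trim genes lie side by side in the genome. No member in such a run was called, where 8.62% of all members and 10.3% of all genes were. The runs hold few members, so these counts do not set them apart from other genes. The run of Trim43a, Trim43b and Trim43c holds no member, and its shared probe set, lower in the added fit above, is not counted here. On chromosome 7 a run of 10 annotated genes from Trim6 to Trim30d includes 6 members, with 0 called and differences from -0.41 for Trim12c to 0.13 for Trim30d. Trim12c read 5.48, 5.10 and 5.58 in control and 4.99, 4.82 and 5.12 in overexpression. Its groups overlapped at control replicate 2, and without that array it passed at an adjusted p of 0.0262. The shared probe set of Trim5, Trim12c and Trim12a was at -0.22 ± 0.10 (limma over all probe sets, adjusted p = 0.298). That of Trim5 and Trim12c was at -0.27 ± 0.091 without overlap (adjusted p = 0.173), and neither passed. On chromosome 17 all 5 genes of a run from Trim26 to Trim31 are members, with 0 called and differences from -0.20 to 0.15. Around the 5 called members, 18 of the 20 protein-coding genes within 2 places on either side were measured, of which 2 were higher and 1 was lower (16.7%, against 10.3% of all genes). They were Ptk2b beside Trim35 (0.31 ± 0.075), Fhdc1 beside Trim2 (0.41 ± 0.096) and Thbs3 near Trim46 (-0.35 ± 0.071), and they were named after their values were seen. The sign of the difference was that of the Trim gene in 12 of the 18 measured neighbours. Their calls ended in 5, 5 and 3 of the 6 fits without 1 array.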
